A study of Mus musculus with 16 samples.

Results

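Accessible chromatin was examined at 10 marker genes of the liver sinusoidal endothelium, namely the scavenger receptors Stab1 and Stab2, the hyaluronan receptor Lyve1, the lectin Clec4g, the growth factor receptors Kdr and Tek, the adhesion molecules Pecam1 and Cdh5, and the transcription factors Gata4 and Erg. DNase hypersensitive sites (DHS) were taken from each gene with 20 kb on each side, and peaks of the 4 lists that shared at least 1 bp were joined to 1 region. The 10 genes, of 22238 protein-coding genes in the mm9 annotation, held 81 of the 51482 DHS regions of the series. This rule used gene names and positions, and no measured value.

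Livers of C57BL/6J (B6) mice and of CAST/EiJ (CAST) mice of both sexes, recorded as 8 weeks of age, were compared to find open chromatin that differs by sex or strain. B6 is a classical laboratory strain, and CAST is an inbred strain derived from wild Mus musculus castaneus. Whole-liver nuclei of each mouse were incubated with 32 units of DNase I, which cuts accessible DNA, and the released fragments were sequenced. Each of the 4 groups (male B6, female B6, male CAST and female CAST) was represented by 4 libraries that the authors had merged before peak calling, so that each group was 1 peak list with no replicate spread, and no test between groups was possible.

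Liver sinusoids are the capillaries between plates of hepatocytes. Their endothelium is perforated by fenestrae, lacks an organized basement membrane and clears hyaluronan, lipoproteins and other waste from blood through receptors such as the stabilins. GATA4 is a factor known to specify this endothelium, ERG and its ETS family relatives act in endothelium generally, and VEGF signalling through the Kdr product maintains the fenestrae. The nuclei came from whole liver, in which most nuclei are those of hepatocytes.

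The lists held 38751 peaks in B6 males, 26271 in B6 females, 39562 in CAST males and 24888 in CAST females. Read depth is not given in these lists, but the background that the fold enrichment and p-value of a peak imply had a genome-wide floor of 15.4 reads in B6 males, 13.9 in B6 females, 14.2 in CAST males and 7.94 in CAST females, which orders the lists by depth and background together. The floor was lowest in the female CAST list. In the male B6 list, 26 nuclear peaks repeated 1 of a few pairs of fold enrichment and q-value exactly over backgrounds of more than 1000 reads, against 0 such peaks in the other lists, and 1 of them lay in Kdr.

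In the lists as deposited, all 10 marker genes carried DHS in male B6 liver and 9, all but Cdh5, in each other group. A smaller share of these DHS than of all DHS of the series was in all 4 lists. The windows of the marker genes held 6.52 regions per 100 kb, compared to 3.63 over the windows of all protein-coding genes. Windows of other endothelial genes held 5.50, those of hepatocyte transcription factor genes 12.5 and those of hepatocyte secreted and metabolic genes 13.1. Kupffer cell, stellate cell and bile duct genes had 1.62, 1.47 and 3.32. Male B6 liver had 61 of the 81 regions (75.3%, against 74.6% of all regions), female B6 liver 30 (37.0%, against 50.0%), male CAST liver 53 (65.4%, against 76.2%) and female CAST liver 23 (28.4%, against 47.3%). The share in B6 males was close to that of the series, and the other shares were lower. With each list cut to the 24888 peaks of highest q-value score, these counts were 31, 26, 26 and 23, and among peaks with a −log10 q-value (the MACS2 p-value corrected for multiple testing) of at least 10 they were 32, 7, 28 and 7. At that threshold Cdh5 and Tek had no region in any list. In all 4 lists there were 16 regions (19.8%), against 35.6% of all regions of the series, and 35 regions (43.2%) were in 1 list alone, against 35.2% of all regions. The median fold enrichment (pileup at the summit over the local background) of the marker regions was 2.88 in B6 males, 2.65 in B6 females, 3.09 in CAST males and 3.47 in CAST females, below the 3.50, 3.31, 3.75 and 4.10 of all regions in the same lists. The medians of regions at hepatocyte transcription factor genes (3.13, 2.84, 3.39 and 3.74) and at hepatocyte secreted and metabolic genes (3.01, 3.01, 3.33 and 3.37) were below those of all regions as well. In bulk nuclei, fewer cells of a type and less accessibility per cell cannot be told apart.

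Of the 81 regions, 50 were intronic and 11 intergenic, proportions that the choice of windows around genes largely sets. Another 12 lay within 1 kb of a start site of a protein-coding gene, of which 8 were at a start site of the marker gene itself and 4 at that of a neighbour. Their median width in B6 males was 488 bp, compared to 598 bp over all regions, and in CAST females 426 bp, compared to 535 bp.

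**Figure D1:**
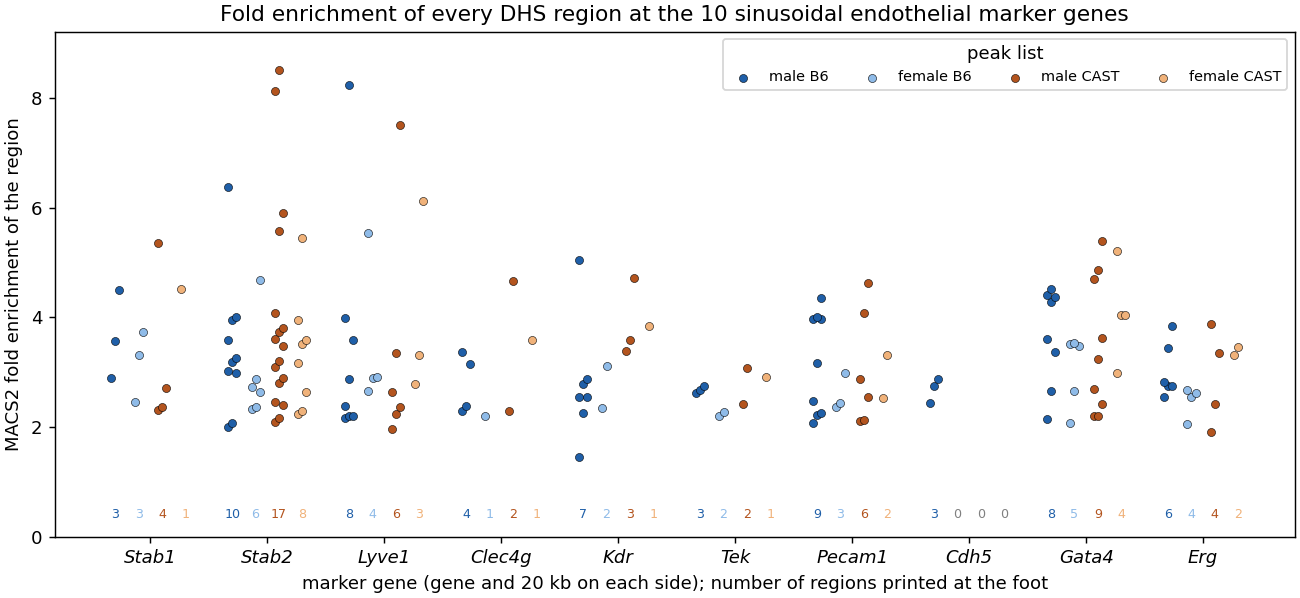
MACS2 fold enrichment (y axis, linear) of each of the 81 DHS regions in each list that held it, by marker gene (x axis), with the number of regions per list at the foot. Stab2 has the most regions, 17 of them in CAST males, Cdh5 has 3 regions in B6 males and none in the other lists, and the point at 1.45 is the Kdr exon region with repeated values.

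Stab2 (chr10:86303943-86470770, minus strand) encodes stabilin-2, the main hyaluronan clearance receptor of these cells. It had the most regions of any marker gene, 22 in a window of 206.8 kb (10.6 per 100 kb), with 10 in B6 males, 6 in B6 females, 17 in CAST males and 8 in CAST females. None lay within 1 kb of its start site. Its region with the highest fold enrichment in both B6 lists was intronic, chr10:86341356-86343662, with fold enrichment 6.39 in B6 males, 4.68 in B6 females, 8.13 in CAST males and 5.45 in CAST females. Its summits fell within 43 bp of each other.

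A second intronic region, chr10:86386183-86386905, had the highest fold enrichment of any marker region. It reached 8.52 in CAST males, at percentile 90.0 of that list, but 2.98 in B6 males, 2.88 in B6 females and 3.51 in CAST females. The pileups were 62 reads in B6 males, 47 in B6 females, 219 in CAST males and 41 in CAST females. The male CAST list thus stood apart from the other 3, which were close to each other, while the summits of all 4 lay within 19 bp. The third region in all 4 lists, chr10:86455214-86455961, also intronic, had 4.0, 2.74, 3.81 and 3.58 in the same order of lists.

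Of the 22 Stab2 regions, 12 were found in CAST lists only and 4 in B6 lists only. Of the 12, 7 were in the male CAST list alone, 4 in both CAST lists and 1 in the female CAST list alone. The male CAST list alone held 15.2% of all regions of the series. Over all regions of the series, 21.4% were in CAST lists only and 20.7% in B6 lists only, compared to 54.5% and 18.2% at Stab2. Of 95 protein-coding genes with at least 20 regions in their window, 2 had a CAST-only share at least as high as that of Stab2, which is one of them. Among the 947 genes with at least 10 regions, the number was 19. Stab2 was picked for this ranking after its values were seen, so the rank describes the same counts and is no test. The 4 Stab2 regions in both CAST lists but in neither B6 list were the only marker regions of that kind (4.94% of the 81, against 3.62% of all regions). Counts of CAST-only regions fell to 7, against 3 B6-only regions, both among peaks with a −log10 q-value of at least 10 and in lists cut to equal size, and came to 15 against 10 when peaks were joined only at 50% overlap of both.

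The 4 regions were spread along the gene and past its end. The strongest was chr10:86291119-86291827, in an intron of the neighbouring Nt5dc3, with 5.90 in CAST males and 3.96 in CAST females. Beside it, chr10:86288482-86288967 had 2.80 and 2.65. Within Stab2 introns, chr10:86345281-86345724 had 3.60 and 3.16, and chr10:86434892-86435540 had 3.73 and 2.29.

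The CAST-only regions were densest at the 3′ end. The last 7 regions of the window, over 37.3 kb from inside Stab2 into Nt5dc3, were all in CAST lists and in no B6 list. Of these 7, only chr10:86288482-86288967 and chr10:86291119-86291827 were in both CAST lists, and the others were in the male CAST list alone. Among them chr10:86325205-86325821, an intronic region, had 5.57 in CAST males and no peak elsewhere, with a −log10 q-value of 44.2. The first region beyond them, chr10:86334799-86335732, which overlaps an exon of Stab2, showed the opposite pattern, with 3.96 in B6 males and 2.37 in B6 females and no CAST peak. A further region in both B6 lists only, chr10:86348883-86349669, had 3.59 and 2.33. Reads of CAST mice had been mapped to a CAST genome and their coordinates converted to mm9, and the part of mapping and conversion in these patterns was not tested.

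**Figure D2:**
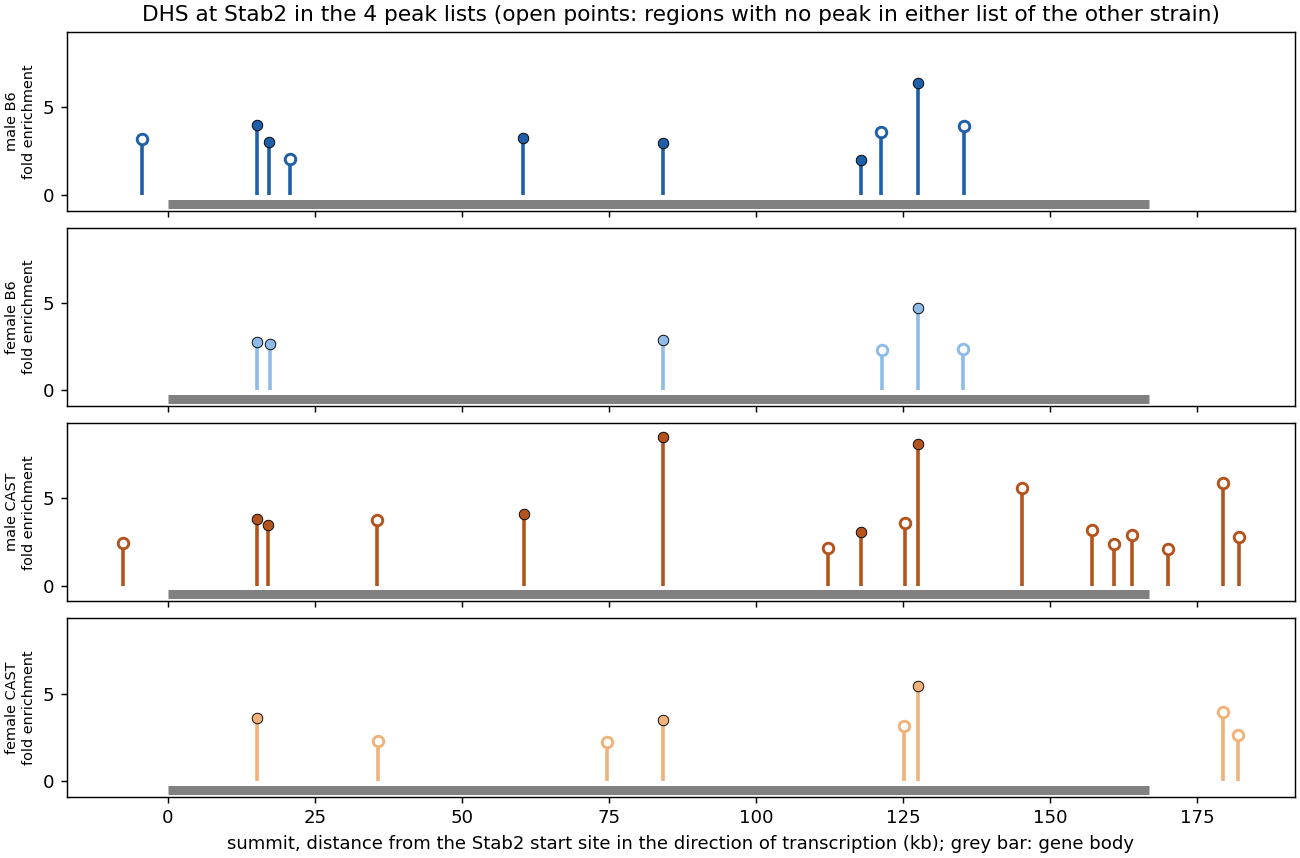
Fold enrichment (y axis, linear) of each Stab2 DHS in the 4 lists against the distance of its summit from the Stab2 start site in the direction of transcription (x axis, kb), with the gene body as a grey bar. Open points are regions with no peak in either list of the other strain, and they crowd at the 3′ end in the male CAST panel.

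The reference sequences of 200 bases around the summits of the strongest Stab2 region and of the strongest one in both CAST lists alone are shown because the former differed between the strains in males and the latter had peaks in CAST lists only. They are mm9 plus-strand bases, thus of B6, at chr10:86386419-86386618 and chr10:86291233-86291432. In this and the sequences further on, capitals mark the ETS family core AGGAAG, or the letters AGATAA that GATA factors recognize, on either strand. Neither Stab2 sequence holds one.
Stab2 intron, highest in CAST males: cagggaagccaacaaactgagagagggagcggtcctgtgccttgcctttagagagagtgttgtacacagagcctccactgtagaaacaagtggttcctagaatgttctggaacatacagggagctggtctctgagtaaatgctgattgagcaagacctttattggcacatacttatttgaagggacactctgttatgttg
Stab2 downstream, both CAST lists only: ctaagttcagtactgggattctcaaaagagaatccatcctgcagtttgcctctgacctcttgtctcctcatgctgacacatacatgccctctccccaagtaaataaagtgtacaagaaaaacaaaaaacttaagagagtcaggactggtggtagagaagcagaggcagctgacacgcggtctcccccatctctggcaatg

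Stab1 (chr14:31952199-31981827, minus strand), whose product stabilin-1 is a scavenger receptor related to stabilin-2, had 4 regions and no promoter DHS. Its strongest, chr14:31941327-31942536, lay downstream at the start site of 2010107H07Rik, and its values of 4.51 in B6 males, 3.74 in B6 females, 5.36 in CAST males and 4.52 in CAST females cannot be told apart from the promoter of that gene. A region upstream, chr14:31985750-31986632, was likewise at the start site of Nisch. The strongest region more than 1 kb from other start sites, chr14:31996105-31996784, lay in an intron 1449 bp from the start site of Nisch and 14278 bp from that of Stab1. It had 3.57 in B6 males, 3.31 in B6 females and 2.71 in CAST males and no female CAST peak. Inside Stab1 there was a single region, chr14:31973668-31973920, with 2.36 in CAST males only.

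Lyve1 (chr7:117994121-118006467, minus strand), a hyaluronan receptor shared with lymphatic endothelium, had 8 regions. The strongest, chr7:117987296-117988216, was the promoter of the neighbouring Rnf141, with 8.24 in B6 males, 5.54 in B6 females, 7.51 in CAST males and 6.12 in CAST females. Within the gene, chr7:117998350-117999095 was in all 4 lists, at 3.99, 2.89, 3.36 and 2.78 in that order. Its own promoter, chr7:118006233-118006633, was listed in B6 males only, at 2.17 and a −log10 q-value of 3.20.

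Clec4g (chr8:3707064-3720651, minus strand), an endothelial C-type lectin of the sinusoids, had 4 regions, of which none was in all 4 lists. Its strongest region lay upstream between genes, chr8:3736982-3737696, with 3.36 in B6 males, 4.66 in CAST males and 3.58 in CAST females. An intronic region, chr8:3718369-3718811, was in both B6 lists only, at 3.14 in males and 2.21 in females. The promoter region, chr8:3720444-3720807, was in the male B6 list only, at 2.38.

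The 200 bases of mm9 plus strand at chr8:3737102-3737301, around the summit of the upstream Clec4g region, are shown because they hold both an ETS and a GATA motif, in capitals, which 4 of the 81 marker regions (4.94%) and 2.55% of all regions did.
Clec4g upstream: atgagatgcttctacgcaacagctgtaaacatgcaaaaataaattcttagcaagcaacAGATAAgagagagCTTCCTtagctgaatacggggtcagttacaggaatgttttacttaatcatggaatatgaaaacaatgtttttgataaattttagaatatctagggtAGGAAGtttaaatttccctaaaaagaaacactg

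Kdr (chr5:76328852-76374483, minus strand), the principal VEGF receptor of endothelium, had 7 regions, all of them in the male B6 list, 2 in B6 females, 3 in CAST males and 1 in CAST females. An intronic region 15779 bp from the start site, chr5:76357848-76358674, was the only one in all 4 lists, with 5.05 in B6 males, 3.12 in B6 females, 4.72 in CAST males and 3.85 in CAST females and summits within 41 bp. The promoter, chr5:76374239-76374750, was in both B6 lists only, at 2.55 in males and 2.35 in females. These promoter peaks had −log10 q-values of 7.01 and 3.86, below the medians of 18.1 and 12.4 of their lists.

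One Kdr exon region, chr5:76340032-76340265 in B6 males only, had values unlike the others. Its fold enrichment of 1.45 corresponded to a pileup of about 3161 reads over a background of 2174, with a −log10 q-value of 83.8. Exactly these values stood at 11 peaks of the male B6 list on 8 chromosomes, so they are not taken as a measurement of Kdr. Without such peaks male B6 liver had 60 marker regions.

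Tek (chr4:94405980-94541667, plus strand), the angiopoietin receptor TIE2, had 4 regions in a window of 175.7 kb (2.28 per 100 kb), the lowest density of the 10. Its promoter, chr4:94405642-94406198, was in both B6 lists only, as for Kdr, at 2.68 in males and 2.28 in females. The strongest region, chr4:94412799-94413501 in an intron 6590 bp from the start site, had 2.63 in B6 males, 3.08 in CAST males and 2.91 in CAST females.

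For the receptors, the sequence around the summit of the Kdr intronic region, chr5:76358080-76358279 of the mm9 plus strand, is shown because it was the one growth factor receptor region in all 4 lists. AGGAAG occurs in it at 2 places, in capitals.
Kdr intron: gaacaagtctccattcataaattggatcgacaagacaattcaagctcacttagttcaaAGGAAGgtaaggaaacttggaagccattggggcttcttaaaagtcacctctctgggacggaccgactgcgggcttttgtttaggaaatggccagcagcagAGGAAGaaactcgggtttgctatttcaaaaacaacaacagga

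Pecam1 (chr11:106515531-106611942, minus strand), the adhesion molecule CD31, had 11 regions. Its strongest was intronic, chr11:106529112-106529826, with 4.0 in B6 males and 4.62 in CAST males and no peak in females. Another intronic region, chr11:106536057-106537016, was in all 4 lists, with 4.35, 2.99, 4.08 and 3.31 in B6 males, B6 females, CAST males and CAST females. Intronic regions chr11:106559651-106560138 and chr11:106589564-106590182 each had 64 reads and a fold enrichment of 3.97 in B6 males and no peak elsewhere. The promoter region, chr11:106576533-106576840 at a start site inside the annotated gene, was in the male B6 list only, at 2.08 with a −log10 q-value of 2.44, the weakest of the marker promoters.

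Cdh5 (chr8:106625525-106668402, plus strand), or VE-cadherin, the adhesion protein of endothelial junctions, was the barest marker. It had 3 regions, all in B6 males only, with fold enrichments of 2.75 at chr8:106619498-106619814 and 2.45 at chr8:106623231-106623808 upstream, and 2.87 at chr8:106634760-106635415 in an intron. Their pileups were 44, 39 and 46 reads. No Cdh5 region was listed in the other 3 groups.

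The strongest Pecam1 region is given at chr11:106529337-106529536 of the mm9 plus strand as an example of a DHS in both male lists alone. It holds 1 GATA motif, in capitals as its reverse complement.
Pecam1 intron: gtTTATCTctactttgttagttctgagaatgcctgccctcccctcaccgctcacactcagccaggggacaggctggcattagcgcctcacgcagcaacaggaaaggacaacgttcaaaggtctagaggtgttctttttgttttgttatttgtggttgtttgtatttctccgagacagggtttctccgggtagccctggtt

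Gata4 (chr14:63817759-63890529, minus strand), a zinc finger factor that other liver cell types also use, had the most regions in all 4 lists. Of its 10 regions, there were 8 in B6 males, 5 in B6 females, 9 in CAST males and 4 in CAST females, and 4 were common to all. The region with the highest fold enrichment, chr14:63830890-63831462, lay 982 bp from an alternative start site inside the gene, with 4.28 in B6 males, 3.48 in B6 females, 5.40 in CAST males and 5.21 in CAST females. The region spanning another start site, chr14:63863760-63865296, was wider and had 4.41, 3.54, 4.70 and 4.05, and an intronic region, chr14:63849933-63850949, had 4.51, 3.52, 4.86 and 4.04 in the same order. Values at these 3 regions lay between 3.48 and 5.40. The female B6 value was the lowest at each of them, and the female B6 median was also the lowest over all regions of the series.

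Erg (chr16:95580776-95808200, minus strand), an ETS factor of endothelium, had 8 regions in the widest window, 267.4 kb. Its promoter region, chr16:95680589-95681252 at a start site inside the gene, was in all 4 lists, with 3.84 in B6 males, 2.68 in B6 females, 3.88 in CAST males and 3.47 in CAST females. An intronic region, chr16:95660606-95661745, was in all lists too, at 2.55, 2.61, 2.42 and 3.32, but its summits were up to 620 bp apart, so that the lists may hold different sites there. Of its 8 regions, 5 were in 1 list alone.

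The Gata4 region near the alternative start site is shown at chr14:63831048-63831247 of the mm9 plus strand, as the strongest region of a transcription factor among the 10 genes. It holds 1 ETS motif, in capitals.
Gata4 near alternative start: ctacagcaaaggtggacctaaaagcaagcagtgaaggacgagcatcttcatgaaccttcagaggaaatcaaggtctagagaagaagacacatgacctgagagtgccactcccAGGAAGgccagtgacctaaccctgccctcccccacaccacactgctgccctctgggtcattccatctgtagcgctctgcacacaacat

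Across the 81 regions, AGGAAG on either strand within the 200 bases around the summit was found in 32 (39.5%), compared to 23.9% of all 51482 regions in windows of the same length. Away from promoters the shares were 40.6% and 24.6%. By the number of lists, 15 of 35 marker regions in 1 list alone held it (25.8% of all such regions), 5 of 22 in 2 lists (23.95%), 6 of 8 in 3 lists (24.6%) and 6 of 16 in 4 lists (21.8%). The other motifs searched were less frequent: the GATA factor letters in 9 regions (11.1%, against 10.4% of all regions), TGTTTAC (FOX) in 3 (3.70%, against 4.44%), CAAAGTCCA (HNF4) in 2 (2.47%, against 1.06%), TTGCNNAA (CEBP) in 6 (7.41%, against 11.6%) and TGANTCA (AP-1) in 4 (4.94%, against 6.24%). All 3 Cdh5 regions held AGGAAG, as did 8 of 22 at Stab2 and 3 of 10 at Gata4. Base composition was close, with a median GC content of 48.5% in marker regions and 49.0% in all regions. None of the 6 motifs contains another, and a match describes letters only, not a bound site.

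Promoter DHS of the marker genes were most frequent in male B6 liver. Of the 10 genes, 7 had a promoter DHS in B6 males, 4 in B6 females, 2 in CAST males and 2 in CAST females, whereas the share over all protein-coding genes was similar in the 4 lists, at 51.3%, 46.8%, 50.5% and 44.0%. Only Gata4 and Erg had one in every list. Kdr and Tek had theirs in both B6 lists and in neither CAST list, Lyve1, Pecam1 and Clec4g in B6 males alone, and Stab1, Stab2 and Cdh5 had none.

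The promoters in B6 lists alone were weak. With a −log10 q-value of at least 10, or with lists of equal size, the count in B6 males fell from 7 to 2, equal to that in CAST males, and when pileups were scaled to the lowest implied background it was 5. In female B6 liver it stayed at 4 in lists of equal size, those of Kdr, Tek, Gata4 and Erg, and fell to 1 at the stricter threshold. With promoters taken within 2.5 kb of a start site, the counts were 8 in B6 males, 5 in B6 females, 2 in CAST males and 2 in CAST females. The Cdh5 region chr8:106623231-106623808, in B6 males only, lay 1717 bp from the Cdh5 start site.

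Among other endothelial genes, a list of 36 that includes Flt1, Tie1 and Eng, promoter DHS were most frequent in the male B6 list as deposited. In B6 males 26 of the 36 had one, with 11 in B6 females, 19 in CAST males and 13 in CAST females. Over all genes the shares were 51.3%, 46.8%, 50.5% and 44.0% in that order. These counts were not redone in lists of equal size or at the stricter threshold. Of the 36 genes, 8 (22.2%) had a promoter DHS in all 4 lists, compared to 2 of 10 of the sinusoidal markers and 42.2% of all genes. Sox7, an endothelial factor, was the highest of these in B6 males at 7.89, with 4.38 in B6 females, 7.17 in CAST males and 6.31 in CAST females. Another 8, Vwf and Emcn among them, had no promoter DHS in any list.

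Of the gene lists compared, those of hepatocyte genes had promoter DHS most often in every peak list. Of 11 hepatocyte transcription factors, 11 had a promoter DHS in B6 males and 10 in each other list, with Nr5a2 at 9.41, 7.0, 8.67 and 6.69 in B6 males, B6 females, CAST males and CAST females, and of 10 secreted or metabolic genes 9, 8, 9 and 7 had one. Stellate cell genes had 4, 1, 3 and 0 of 10, and bile duct genes 3, 2, 3 and 2 of 7. Of 10 Kupffer cell genes, promoter DHS were found for Sfpi1 (the gene of PU.1) alone, at 2.75 in B6 females and 2.1 in CAST males, and Clec4f, Vsig4 and 7 others had none. In these lists of whole-liver nuclei no DHS can be assigned to a cell type. Sites at some of the 10 marker genes were open in each list, while Stab1, Stab2 and Cdh5 had no DHS within 1 kb of their start sites in any.

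**Figure D3:**
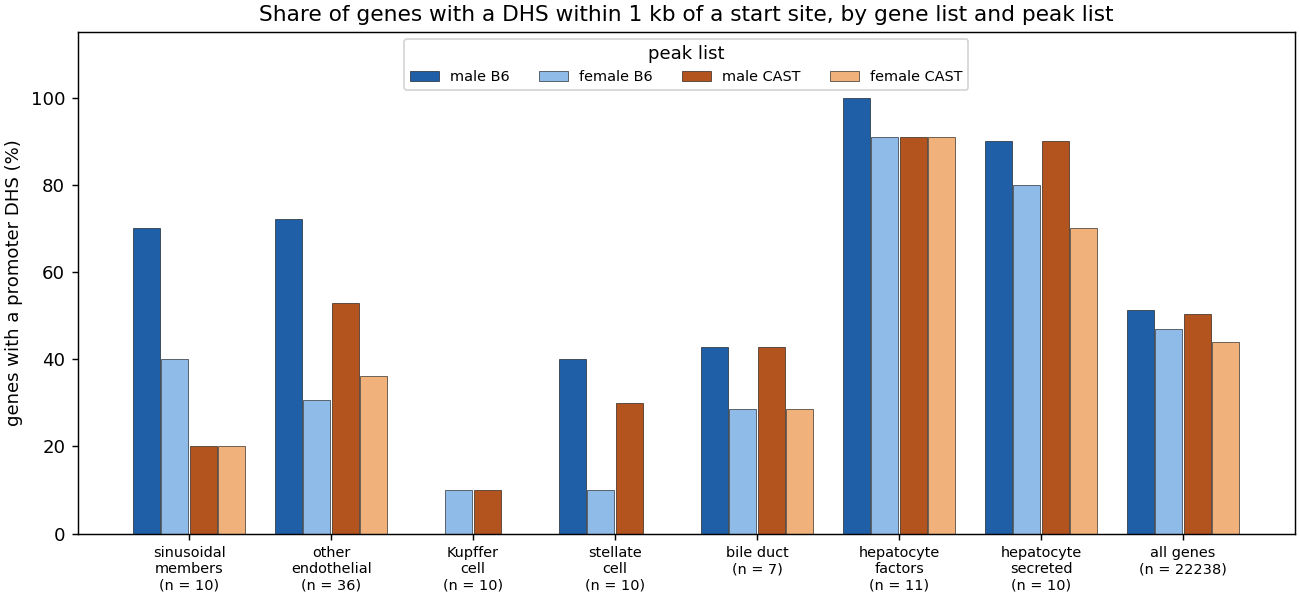
Percent of the genes in each list (x axis, number of genes in brackets) with a DHS within 1 kb of a start site (y axis) in the 4 peak lists (bars). The sinusoidal marker genes go from 7 of 10 in B6 males to 2 of 10 in both CAST lists, while all protein-coding genes lie between 44.0% and 51.3%.

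Male and female liver were compared within each strain for sex-biased accessibility. In the lists as deposited, more marker regions were in the male list only than in the female list only. In B6 liver 34 of 64 regions (53.1%) were in males only and 3 (4.69%) in females only, against 36.4% and 5.13% of all regions. In CAST liver 31 of 54 (57.4%) were in males only and 1 (1.85%) in females only, against 40.3% and 3.9%. The male-only regions had lower q-value scores than those shared by the sexes, as over all regions. In B6 liver their median −log10 q-value was 6.88, compared to 18.4 for marker regions also called in females, and in CAST liver it was 6.53, compared to 25.3. Over all regions the medians were 6.42 and 40.0 in B6 and 6.89 and 47.6 in CAST liver. Strong male-only regions were present too, such as Stab2 chr10:86325205-86325821, described above. The numbers of peaks and the implied background were higher in males of both strains, as were these counts. With lists of equal size, the marker regions in all numbered 31 in males and 26 in females of B6, and 26 and 23 in CAST liver. That cut sets the total of each list to the same number of peaks, so a smaller difference between the sexes is built into it. With pileups scaled to the lowest implied background they numbered 56 and 26, and 47 and 23. The cause of the higher male counts was not tested.

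Both male lists and neither female list held 12 marker regions (14.8%, against 9.38% of all regions), and none was in both female lists alone, a pattern held by 0.0622% of all regions. Pecam1 chr11:106529112-106529826, described above, was the strongest of them. Pecam1 chr11:106539274-106539672 had 2.21 in B6 males and 2.11 in CAST males. At Kdr, chr5:76329570-76330241 in an exon had 2.88 and 3.59, and chr5:76370698-76371008 in an intron had 2.55 and 3.38.

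The others ranged as widely. Stab2 had intronic regions of this kind at chr10:86352607-86353126, with 2.01 in B6 males and 3.09 in CAST males, and at chr10:86410062-86410536, with 3.25 and 4.07. Gata4 had chr14:63812340-63812740, at the start site of Neil2, with 4.36 and 2.69, and the intronic chr14:63885294-63885879 with 2.15 and 2.21. Clec4g chr8:3717269-3717760, Tek chr4:94496689-94497167 and the Lyve1 regions chr7:117977686-117978288 and chr7:117983708-117984149 lay between 1.97 and 2.75 in both male lists.

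At regions called in both sexes, fold enrichment differed little once the shift of all regions was taken out. Male values were higher by a median of 0.40 on the log2 scale over all 23644 shared regions in B6 and by 0.25 over 22764 in CAST liver, and ratios were centred on these medians. The marker regions had a median centred log2 ratio of −0.04 in B6 (n = 27, from −0.44 to 0.39) and 0.01 in CAST liver (n = 22, from −0.70 to 1.03). In B6 liver 0 were at least 1.5-fold higher in males and 0 in females, against 2.62% and 2.6% of all regions. In CAST liver 1 was higher in males, against 3.31%, and 2 in females, against 2.56%.

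The region higher in CAST males was Stab2 chr10:86386183-86386905, with a centred log2 ratio of 1.03. Those higher in CAST females were Erg chr16:95660606-95661745 at −0.70, whose summits differ between lists, and Lyve1 chr7:118025174-118025761, in an intron upstream of the gene, at −0.59. No region passed 1.5-fold in the same direction in both strains. Of the 16 marker regions in all 4 lists, 1, the Stab2 region, had a male-to-female ratio, here centred on all regions in 4 lists, that differed at least 1.5-fold between the strains, against 8.13% of all such regions.

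The strains were compared within each sex. Marker regions were more often in B6 only than in CAST only. Among males, 25 of 78 regions (32.1%) were in B6 liver only, against 19.1% of all regions, and 17 (21.8%) in CAST liver only, against 20.9%. Among females, 14 of 37 (37.8%) were in B6 liver only, against 22.6%, and 7 (18.9%) in CAST liver only, against 18.3%. Leaving Stab2 aside, 23 of 59 regions (39.0%) were in B6 lists only and 5 (8.47%) in CAST lists only, against 20.7% and 21.4% of all regions and 27 (33.3%) and 17 (21.0%) of the 81 with Stab2. Stab2, the gene with the most CAST-only regions, was set apart after its values were seen, which by itself moves the rest towards B6, and the 23 include the Kdr exon region of repeated values. Of the 9 genes, 7 had more B6-only than CAST-only regions, and Stab1 (0 and 1) and Gata4 (1 and 2) had fewer. The summed counts were 10 and 2 among peaks with a −log10 q-value of at least 10, 12 and 4 in lists of equal size, 20 and 3 when pileups were scaled to the lowest implied background, and 33 and 11 when peaks were joined at 50% overlap.

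Both B6 lists and no CAST list held 5 regions (6.17%, against 3.32% of all regions), namely the promoters of Kdr and Tek, the Clec4g intronic region and the pair at Stab2. Their fold enrichments lay between 2.55 and 3.96 in males and between 2.21 and 2.37 in females. All had lower values in the female list, as did B6 regions in general, and after centring on the shift of all B6 regions the log2 ratios of male over female were −0.28 at the Kdr promoter, −0.17 at the Tek promoter, 0.11 at Clec4g, and 0.34 and 0.23 at Stab2, all within 1.5-fold.

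Shared regions showed little strain difference. CAST values were higher than B6 values by 0.08 on the log2 scale over all 29099 regions shared by males and by 0.25 over 18601 shared by females. After centring, marker regions had a median of −0.07 in males (n = 36, from −0.78 to 1.44) and −0.04 in females (n = 16, from −0.31 to 0.34). At least 1.5-fold higher in CAST males was 1 region, Stab2 chr10:86386183-86386905 at 1.44, against 6.68% of all regions. Higher in B6 males were 2, against 4.49%, at Gata4 chr14:63812340-63812740 (−0.78, the Neil2 promoter) and at Pecam1 chr11:106520806-106521505 (−0.66, intronic, with summits up to 427 bp apart). In females 0 passed in either direction, against 4.97% and 3.42% of all regions.

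**Figure D4:**
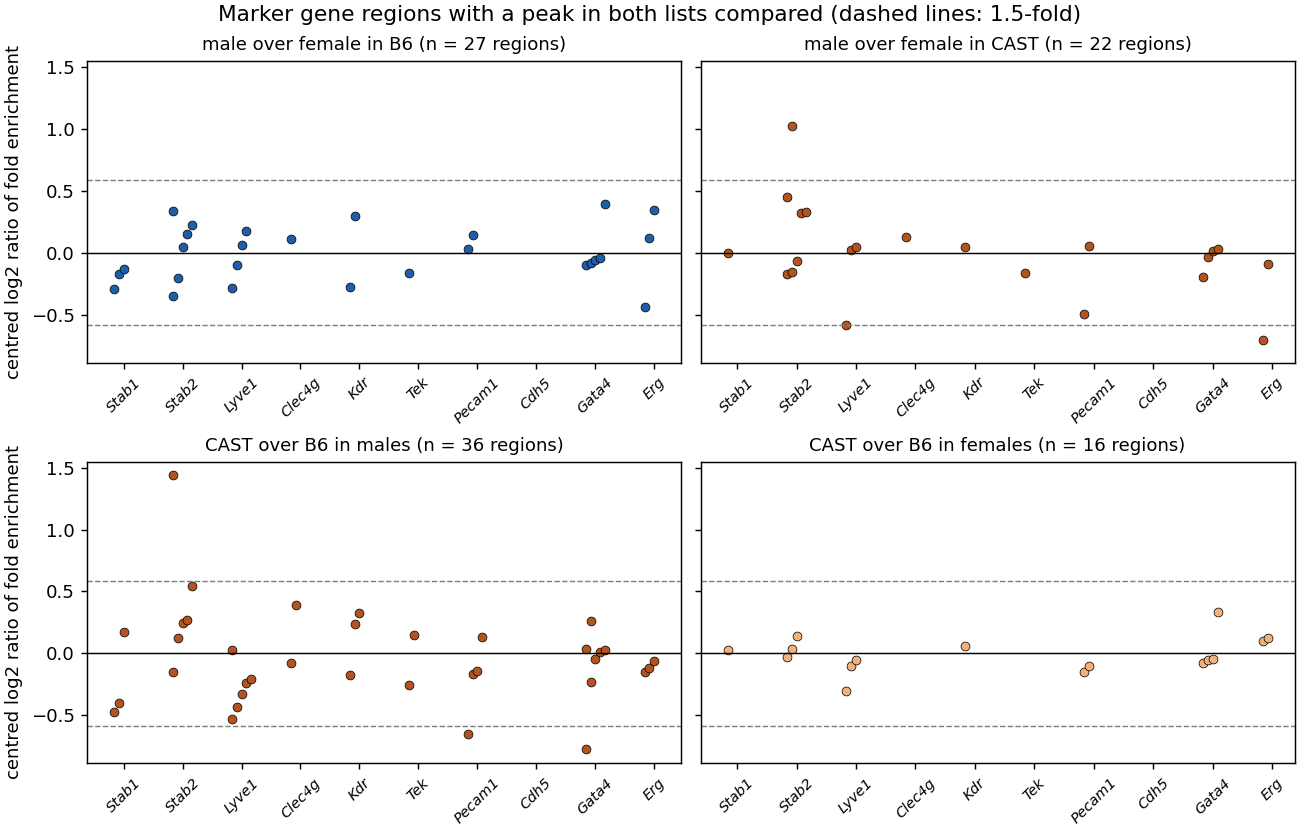
Centred log2 ratio of fold enrichment (y axis) at each marker region with a peak in both lists compared, by gene (x axis), for the 4 comparisons. Dashed lines mark 1.5-fold, and the points beyond them are at Stab2, Erg, Lyve1, Pecam1 and Gata4, with the Stab2 point at 1.03 and 1.44.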

How the data were processed

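DNase-seq of liver from 4 groups of 4 mice (male B6, female B6, male CAST, female CAST) was analysed as the peak lists that the authors deposited. Per the labels and the study's methods, the authors mapped unique reads with Bowtie2 to mm9, or to a CAST genome with coordinates converted to mm9, merged the libraries of a group, called peaks against input with MACS2 and removed blacklisted regions. The deposited values are the fold enrichment (a ratio), the −log10 p-value and −log10 q-value of each peak, and its summit. They carry no counts per library, so there is no error between mice and no p-value.

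Peaks were joined at 1 bp, annotated with the mm9 gene annotation, and assigned to each gene with 20 kb on each side. The highest fold enrichment of a region was used per list. Promoter meant within 1 kb of a start site. A pileup in reads was recovered from fold enrichment and p-value, and between 99.86% and 99.96% per list came out whole within 0.02 reads. Log2 ratios were centred on all regions shared by the lists compared, and 1.5-fold was the call. Motifs were searched in the 200 bases around the summit of the highest peak, in the mm9 reference. The steps were checked on simulated data, with Python 3.11.15, numpy 2.4.6, pandas 2.3.3 and scipy 1.17.1.

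The genes, the comparison lists and the rules were chosen with earlier results of these data known. All 10 genes are named, with each promoter region, the strongest region of each gene, and the regions in both lists of 1 sex or strain alone. No region passed 1.5-fold in the same direction in both strains or both sexes, which would have been named too. The Kdr exon, the other regions past 1.5-fold in 1 comparison, the Stab2 regions outside these rules and other regions given with values were picked after their values were seen.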

Additional observations from a re-analysis of the deposited data

Results flagged for a closer look

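The intronic Stab2 region chr10:86386183-86386905 was flagged because its male-to-female ratio had opposite signs in the strains. The centred log2 ratio of fold enrichment, male over female, was −0.35 in B6 and 1.03 in CAST liver. Centred instead on the regions in all 4 lists, the ratios differed between the strains by 1.39 on the log2 scale (2.62-fold). The difference was not tested, since each group is 1 list. The region's fold enrichment in male CAST liver alone sets it apart, and its uncentred value was higher in males than in females in B6 liver too (2.98 and 2.88).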

How the results depend on the processing

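No paired analysis was possible because each group is a single pooled list, and no library could be left out. Among the alternative values, 93 stayed within 1.5 times the count, or within the interval, of the value reported, and 22 did not. For shares and medians this was a 95% interval over the marker regions of the pooled lists, not over mice. For the share of marker regions in all 4 lists it ran from 12.5% to 29.7%. Staying within such a range therefore says nothing about the spread between mice. With a −log10 q-value of at least 10, marker regions numbered 32 in B6 males, 7 in B6 females, 28 in CAST males and 7 in CAST females, marker promoters 2 in B6 males, 1 in B6 females and 1 in CAST females, CAST-only Stab2 regions 7, and the other 9 genes had 10 B6-only and 2 CAST-only regions. With lists of 24888 peaks each, regions numbered 31 in B6 males and 26 in CAST males (26 and 23 in the females), promoters 2 in B6 males, CAST-only Stab2 regions 7 and B6-only regions of the other 9 genes 12. With pileups scaled to the lowest implied background, CAST-only regions of the other 9 genes numbered 3. Under joining at 50% overlap, B6-only Stab2 regions numbered 10 and CAST-only regions of the other 9 genes 11. Uncentred median log2 ratios were 0.36 (male over female in B6), 0.26 (male over female in CAST) and 0.21 (CAST over B6 in females), and on −log10 q-values in place of fold enrichment the male-over-female ratio in CAST liver was 0.081. The cause of these changes was not tested. Counts of regions in 1 strain only and those without peaks of repeated values were alternatives chosen after seeing the data. Read depth is not given in these lists, and the female CAST list had the lowest implied background. A region without a peak in a list was not detected there, which does not show that it was closed.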
